A study of Mus musculus with 8 samples.

Results

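The classical complement components C1qa, C1qb, C1qc, C3 and C4b and the complement inhibitors of the CSMD family, Csmd1, Csmd2 and Csmd3, were followed across the cell types of mouse primary visual cortex (V1). The 8 genes were picked by name, for their place in the complement pathway, from the 26711 features of the count matrices. These genes were chosen with earlier results of these data known. Each was described by its CPM value, that is, its unique molecular identifiers (UMIs) scaled to a total of 1000000 UMIs over all nuclei of 1 cell type in 1 library.

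The complement cascade is a set of secreted proteins that tag surfaces for removal. C1q, built from the A, B and C chains, starts the classical pathway, C4 and C2 pass the signal on, and C3 is the component that is deposited on the target and read by receptors on phagocytes. In the developing visual system C1q, C3 and the microglial C3 receptor are known for their part in the removal of synapses, and the CSMD proteins are large membrane proteins with many CUB and sushi domains, some of which inhibit complement.

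Nuclei came from V1 of P21 mice in which both copies of the glucocorticoid receptor (GR) gene were floxed (GR fl/fl), so every group carried the floxed allele. At birth the mice were given an AAV2/5 vector with the astrocyte promoter GfaABC1D, driving either the inactive ΔCre (GR-Con) or Cre (GR-KO), each followed by T2A-EGFP-CAAX, 4x6T and WPRE. The mice were then reared normally (NR) or in chronic darkness until collection (DR). Vector and rearing together gave 4 groups of 2 mice, 1 male and 1 female, with 1 library per mouse. The questions of the design were how loss of GR from astrocytes and how rearing in the dark changed each cell type. As a model it has limits. The deletion was restricted to cells that the virus reached and in which the promoter was active, the tissue was frozen, and the nuclei were sorted as DRAQ5 positive and GFP negative. Nuclei leave out cytoplasmic RNA, and the 5 components are secreted proteins whose amounts were not measured.

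The 8 libraries held 102330 nuclei in 20 annotated cell types, with 9517 to 15161 nuclei and 168632129 to 288774016 UMIs per library. Cre UMIs were 0 in the 4 GR-Con libraries and 190 to 1054 in the GR-KO libraries. Nr3c1, the gene of GR, was at 206.9 to 262.7 CPM in astrocytes of GR-Con and 268.3 to 284.0 CPM in those of GR-KO; the 3′ tags need not come from the deleted part, so its level does not check the deletion. All 52 markers checked were highest in their own cell type. Of 101098 distinct barcode sequences, 1220 occurred in more than 1 library. Some cell types were sampled unevenly. The NR GR-KO female held 59 L5PT and 58 L6b nuclei, against 384 to 504 and 103 to 237 in the others. Of microglia, the NR GR-Con male, the NR GR-KO male and the DR GR-Con female held 2, 4 and 4 microglial nuclei, and the other 5 libraries held 573 to 948. The DR GR-Con female also had 5 endothelial (Endo), 1 smooth muscle or pericyte (SMC-Peri) and 3 vascular leptomeningeal (VLMC) nuclei. Shares of nuclei, pooled C1q UMIs, the marker check, the order of levels, the cell type with the highest level and the likeness of genes over cell types use all 8 libraries. Other microglial CPM values and fits in the text therefore rest on these 5 libraries, with the 3 others given as UMIs. With these 5, NR GR-Con, NR GR-KO and DR GR-Con each had 1 microglial library.

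The 3 C1q chains lie side by side on the minus strand of chromosome 4 (GRCm38, spans from GENCODE), C1qb at chr4:136880129-136886187, C1qc at chr4:136889804-136893065 and C1qa at chr4:136895917-136898803. The RefSeq promoters of C1qb and C1qc are printed because these neighbouring chains shared one pattern across cell types. RefSeq sequence was matched for 3 of the 8 genes, C1qb, C1qc and C3, and each promoter ran from 250 bases before to 50 bases after the start that RefSeq gives, which is not the start of the GENCODE spans above and for C1qc lies within its span. Capitals mark the letters GAGGAA, the core bound by the myeloid factor PU.1, and AGAACA, the hexamer that GR binds, on either strand, so that TTCCTC and TGTTCT are the same motifs on the other strand. The C1qb promoter is chr4:136886151-136886450 and the C1qc promoter is chr4:136892865-136893164, both on the minus strand of GRCm38.
C1qb: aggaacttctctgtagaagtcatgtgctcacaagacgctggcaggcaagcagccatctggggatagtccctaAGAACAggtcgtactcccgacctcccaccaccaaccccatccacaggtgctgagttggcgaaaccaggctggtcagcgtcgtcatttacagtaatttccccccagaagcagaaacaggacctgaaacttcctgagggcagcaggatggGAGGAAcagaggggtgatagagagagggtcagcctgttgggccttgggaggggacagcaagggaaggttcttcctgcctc
C1qc: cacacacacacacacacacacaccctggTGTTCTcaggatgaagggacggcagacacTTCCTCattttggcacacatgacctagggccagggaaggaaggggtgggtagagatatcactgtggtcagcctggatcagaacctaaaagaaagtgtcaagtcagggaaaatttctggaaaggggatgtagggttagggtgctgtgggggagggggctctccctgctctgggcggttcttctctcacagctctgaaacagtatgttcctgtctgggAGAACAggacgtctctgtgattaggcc
The C1qb window held GAGGAA 1 time and AGAACA 1 time. The C1qc window held GAGGAA 1 time and AGAACA 2 times. The full palindrome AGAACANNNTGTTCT, which contains AGAACA, was in neither, and the C3 window, chr17:57228087-57228386 on the minus strand, held none of the 3 motifs. Of 32851 mouse promoters of this length, 28.3% held GAGGAA, 19.0% held AGAACA and 0.00913% held the palindrome, so both short motifs are common and a match describes the letters alone.

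**Figure D1:**
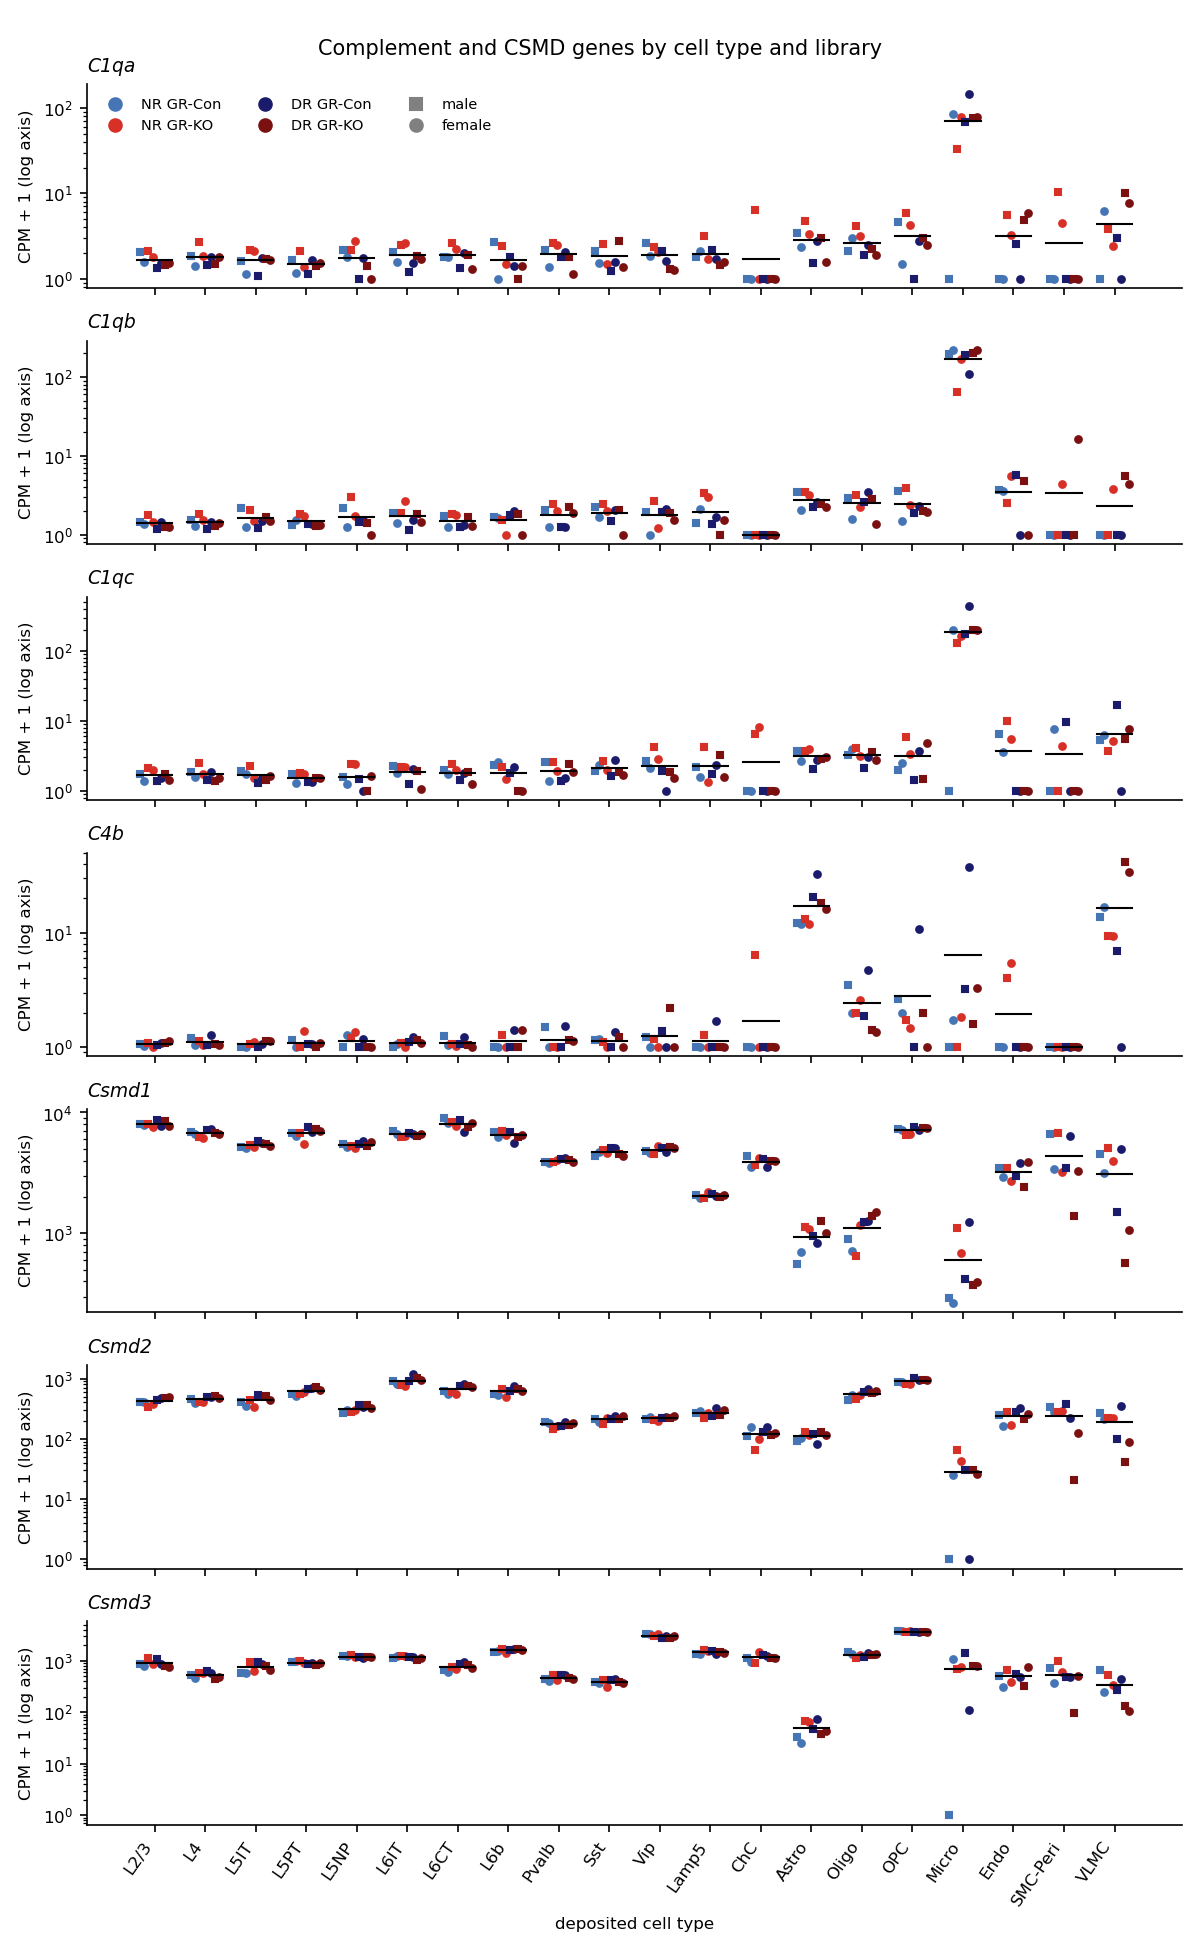
Levels of 7 of the 8 genes in 20 cell types, as CPM plus 1 on a log axis, with 1 point per library (squares male, circles female) and a bar at the mean of the 8 libraries; C3, with 43 UMIs in all, is left out. The C1q chains stand out in microglia, C4b in astrocytes and VLMC, Csmd1 and Csmd2 in excitatory neurons and oligodendrocyte precursor cells (OPC), and Csmd3 in OPC and Vip interneurons, while 3 of the 8 microglial points rest on 2 to 4 nuclei.

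C1q was a microglial signal. In the 5 libraries with microglia, in the order NR GR-Con female, NR GR-KO female, DR GR-Con male, DR GR-KO male and DR GR-KO female, C1qa, which encodes the A chain, was at 84.0, 77.3, 67.0, 75.4 and 76.3 CPM. C1qb, the B chain, was at 216, 170, 187, 202 and 219 CPM in the same libraries. C1qc, the C chain, was at 199, 163, 173, 195 and 199 CPM. No library stood apart for any chain, and the means were 76.0 ± 6.06, 199 ± 20.5 and 186 ± 16.7 CPM (SD, n = 5). Relative to the pooled excitatory neurons of the same library, C1qa was 79.8 to 210 times higher, C1qb 261 to 818 times and C1qc 180 to 484 times. Per kilobase of gene span the microglial levels were 26.3 CPM for C1qa, 32.8 for C1qb and 57.0 for C1qc. The 3 libraries with few microglia gave 0, 1 and 4 UMIs of C1qa, 2, 2 and 3 of C1qb and 0, 4 and 12 of C1qc.

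At least 1 C1q UMI was found in 68.2% of all 3864 microglial nuclei (exact binomial 95% interval 66.7 to 69.6%, which covers counting error only), at a median of 2448 UMIs per nucleus. By chain the shares were 18.6% for C1qa, 40.4% for C1qb and 39.1% for C1qc, and 4.01% of microglial nuclei held all 3. The share with any C1q UMI was 4.03% in the excitatory neurons of layer 2/3 (L2/3, median 21863 UMIs), 3.68% in astrocytes (6107 UMIs), 4.65% in oligodendrocytes (8864 UMIs) and 3.72% in OPC (6229 UMIs). The source of these UMIs was not tested. Thinned to 1000 UMIs per nucleus, the share was 36.5% in microglia against 0.173% in L2/3 and 0.527 to 0.683% in astrocytes, oligodendrocytes and OPC. Of all 9583 C1q UMIs in the series, 5086 (53.1%) lay in microglia, which were 3.78% of the nuclei. C1qa made up 16.8% of the C1q UMIs of microglia and 32.0 to 38.0% of those of the other classes, so the chains stood in another ratio outside microglia. The summed C1q level outside microglia was 1.82 to 3.50 CPM in excitatory neurons of the 3 libraries with few microglia and 0.940 to 2.52 CPM in those of the other 5. Microglial markers in the same neurons summed to 30.3 to 32.0 CPM in the 3 libraries and 26.0 to 36.2 CPM in the other 5.

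The C1q chains were not called between genotypes or rearing conditions in microglia. Calls throughout are edgeR likelihood ratio tests on summed counts with Benjamini-Hochberg adjusted p below 0.05 within a cell type, and microglia entered no planned fit because 3 of 8 libraries fell short of the minimum of 10 nuclei. In a fit over the 5 libraries, added after the data were seen, the log2 difference of GR-KO from GR-Con was 0.03 for C1qa (95% interval -0.29 to 0.35), -0.07 for C1qb (-0.37 to 0.24) and -0.03 for C1qc (-0.33 to 0.26). The difference of DR from NR was -0.13 (-0.45 to 0.18), 0.10 (-0.20 to 0.41) and 0.09 (-0.21 to 0.38). Both NR libraries of this fit were female, while the DR libraries were a GR-Con male, a GR-KO male and a GR-KO female. The fit had no term for sex, so rearing and sex are largely confounded in it. None was called by the edgeR likelihood ratio test, the edgeR quasi-likelihood test (QLF) or DESeq2. In these microglia the 3 tools called 0.233, 0.0156 and 0% of genes for genotype and 1.3, 0.00778 and 0.0156% for rearing. Leaving out 1 library turned the sign of 5 of these 6 differences. An effect that is small against these intervals was not detectable.

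**Figure D2:**
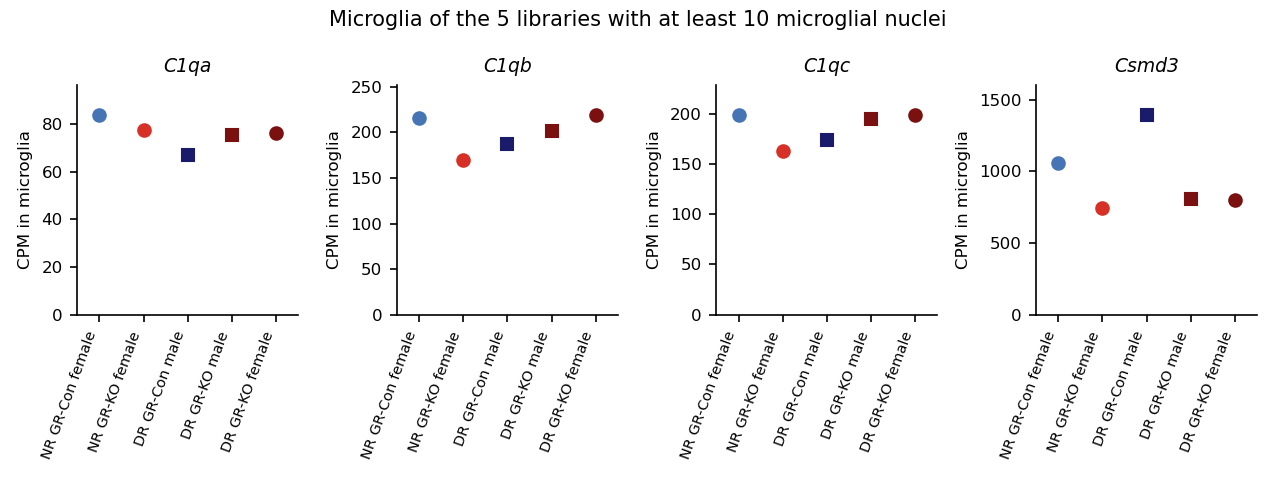
CPM of C1qa, C1qb, C1qc and Csmd3 in microglia of the 5 libraries with 573 to 948 microglial nuclei, 1 point per library (squares male, circles female). The 3 C1q chains lie within a narrow range in all libraries, and Csmd3 was lower in the 3 GR-KO libraries than in both GR-Con libraries.

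Outside microglia C1qa was called lower in DR than in NR in 2 excitatory types, at levels close to 1 CPM, where 3.88% of all pairs of a gene and an excitatory type were called as lower. In L2/3 it was at 1.05 and 0.549 CPM in NR GR-Con (male, then female, as in every list below), 1.11 and 0.808 in NR GR-KO, 0.332 and 0.504 in DR GR-Con and 0.455 and 0.531 in DR GR-KO, each from 22 to 83 UMIs. The 4 DR libraries were all below the 4 NR libraries (log2 difference -0.95, SE 0.27, adjusted p = 0.0064, QLF 0.038, DESeq2 0.016). In the intratelencephalic neurons of layer 6 (L6IT) the difference was -1.06 (SE 0.32, adjusted p = 0.023, QLF 0.096), and it was called in 2 of the 8 fits that left out 1 library. C1qb and C1qc were called by none of the 3 tools, with log2 differences of -0.91 to -0.63 for C1qb and -0.93 to -0.58 for C1qc in the 4 excitatory types tested (medians -0.79 and -0.72, against -0.78 for C1qa over 5 types). Within GR-KO all 3 chains had differences below 0 in 7 of 7 types tested, which share libraries. With sex as a term C1qa was called in 3, C1qb in 1 and C1qc in 1 of them. The share of all genes called in that fit is not given, so these counts have no background. The share of L2/3 nuclei with a C1qa UMI was 1.59% (95% interval 1.43 to 1.77%), against 1.64% (1.32 to 2.02%) in the shallower oligodendrocytes, and was not read as expression of the gene by these neurons. Microglial markers moved with it: their summed level in L2/3 was 26.5 to 31.8 CPM in NR and 22.2 to 27.1 CPM in DR, and their part in the C1qa values was not tested.

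C3, the component on which the pathways converge (chr17:57203970-57228136, minus strand), was close to absent from these nuclei. It had 43 UMIs in 102330 nuclei, with 0 to 10 in any cell type, 1 in microglia and 3 in astrocytes. Outside microglia 42 of 98466 nuclei held a UMI (0.0427%). L5PT, L5NP, chandelier (ChC), Endo, SMC-Peri and VLMC nuclei had 0, which allows shares of up to 0.0949, 0.181, 4.29, 0.752, 1.67 and 0.833% of nuclei with a UMI. C3 passed the filter on low counts in no cell type and no comparison of groups was made.

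C4b, which encodes the C4 protein cleaved by the C1 complex (chr17:34728380-34743882, minus strand), was highest in astrocytes, at 16.1 ± 7.08 CPM (SD, n = 8), and in VLMC, at 15.6 ± 14.1 CPM from 40 UMIs in all. A C4b UMI was found in 8.12% of astrocytes and 9.17% of VLMC nuclei, against 0.388% of microglia and 0.141% of L2/3 neurons. Thinned to 1000 UMIs the share of astrocytes was 1.83%. The near-identical paralog C4a (chr17:34809092-34823464) reached at most 1.35 CPM in any cell type and 35 UMIs in astrocytes. How the counting divided reads between both copies is uncertain.

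C4b in astrocytes was higher after rearing in the dark. It stood at 11.1 and 11.0 CPM in NR GR-Con, 12.1 and 11.0 in NR GR-KO, 19.5 and 31.7 in DR GR-Con and 17.2 and 15.3 in DR GR-KO. All 4 DR libraries lay above all 4 NR libraries, with the DR GR-Con female highest. Over the 8 libraries the log2 difference of DR from NR was 0.88 (SE 0.20, adjusted p = 0.0026, DESeq2 0.0066), where 0.935% of genes were called. It missed the threshold by QLF (adjusted p = 0.13) and without the NR GR-Con male (0.084). The call was kept without each of the 7 other libraries, the DR GR-Con female included. Within GR-Con alone the difference was 1.19 (adjusted p = 0.086) and within GR-KO alone 0.57 (0.058), and both were called with sex as a term (adjusted p = 0.043 each). The difference between these differences was not called (0.61, adjusted p = 1). GR-KO differed from GR-Con by -0.01 (95% interval -0.39 to 0.37) in NR and by -0.62 (-1.22 to -0.03, adjusted p = 0.74) in DR.

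**Figure D3:**
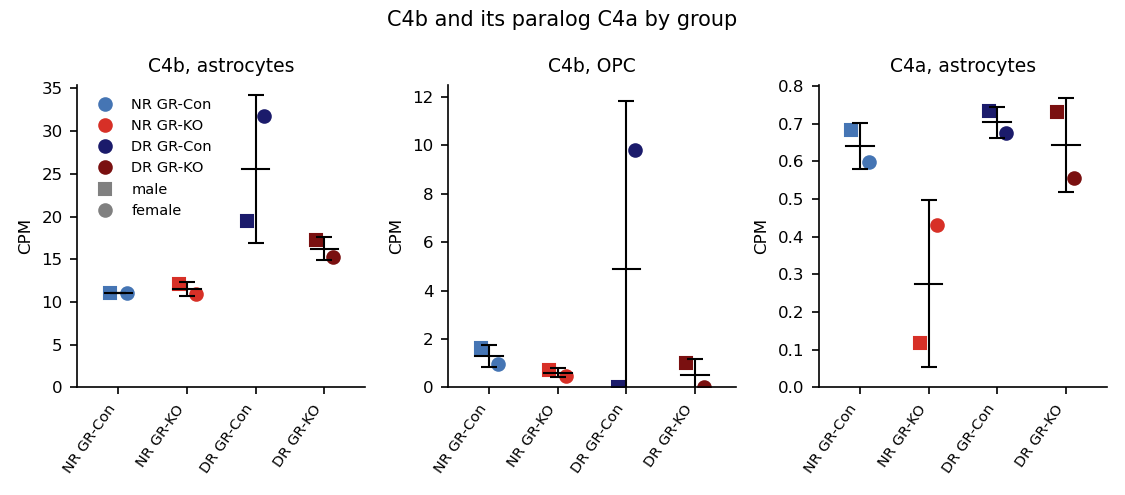
CPM of C4b in astrocytes, C4b in OPC and the paralog C4a in astrocytes for the 4 groups, with 1 point per library (squares male, circles female) and the mean ± SD of 2 libraries. In astrocytes both DR groups lie above both NR groups, and in OPC 1 library, the DR GR-Con female, stands apart at 9.78 CPM.

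Elsewhere C4b was sparse. In OPC the DR GR-Con female was at 9.78 CPM, from 22 of the 34 UMIs of that cell type, and the other 7 libraries were at 0 to 1.63 CPM. In oligodendrocytes the same library was highest at 3.76 CPM, against 0.354 to 2.48 CPM. Microglia of the 5 libraries held 0.593 to 2.26 CPM. In VLMC, C4b was at 8.30 and 8.36 CPM in NR GR-KO and 40.6 and 33.4 CPM in DR GR-KO, from 3 to 10 UMIs each. This was called as higher in DR (1.84, SE 0.59, adjusted p = 0.013), but in none of the 4 fits without 1 library, and QLF gave 0.052. VLMC markers moved in the same direction, from summed levels of 620 and 684 CPM to 1632 and 1272 CPM. Their part was not tested.

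The CSMD genes are among the longest of the genome, with spans of 1643.05, 579.8 and 1211.43 kb for Csmd1 (chr8:15892537-17535586, minus strand), Csmd2 (chr4:127987857-128567656, plus strand) and Csmd3 (chr15:47580637-48792063, minus strand). Nuclear libraries also hold intronic reads, and CPM is not scaled to length. Csmd1, which encodes a membrane inhibitor of the classical pathway, was highest in the corticothalamic neurons of layer 6 (L6CT, 8066 ± 638 CPM), L2/3 (8030 ± 396), OPC (7147 ± 372) and L5PT (6776 ± 654). Interneurons ran from 4903 ± 275 CPM in Vip to 2048 ± 81.5 in Lamp5. The lowest were oligodendrocytes (1104 ± 313), astrocytes (938 ± 232, SD, n = 8 for all of these) and microglia, with 426 ± 155 CPM over the 5 libraries. Per kilobase, Csmd1 in L2/3 was at 4.89 CPM, below C1qc in microglia.

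Csmd2 was at lower levels and peaked in L6IT (911 ± 136 CPM) and OPC (902 ± 76.1), followed by L6CT (668 ± 101), L5PT (620 ± 82.5) and L6b (612 ± 85). Oligodendrocytes held 553 ± 74.7 CPM, more than L2/3 at 426 ± 52.1. Interneurons held 119 to 269 CPM, astrocytes 109 ± 16.9 and microglia 23.9 to 42.0 CPM in the 5 libraries. Csmd3 had another order: OPC were highest (3663 ± 101 CPM), then Vip interneurons (3061 ± 233), L6b (1588 ± 96.3), Lamp5 (1458 ± 102) and oligodendrocytes (1298 ± 100), while L2/3 was at 896 ± 142 and astrocytes lowest at 48.5 ± 17.8. Microglia, low in the other CSMD genes, held 962 ± 272 CPM of Csmd3. Per kilobase in OPC the levels were 4.35 CPM for Csmd1, 1.56 for Csmd2 and 3.02 for Csmd3.

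Ordered by level, 152 pairs of neighbouring cell types were compared over the genes with an exact sign-flip permutation test on the 8 libraries, whose smallest two-sided p is 0.0078. None passed after adjustment over the pairs (smallest adjusted p = 0.099), and 25 did at an unadjusted p under 0.05. A pair could pass only if many others also stood at the smallest p, so the test does not show that neighbours are alike, and the pairs include cell types listed at 0 for C3 and the microglia of the libraries with few nuclei. The pairs in which 8 of 8 libraries had the same direction included L2/3 above OPC for Csmd1, OPC above L6CT for Csmd2, and OPC above Vip and Vip above L6b for Csmd3. Thinned to 1000 UMIs, a Csmd1 UMI was found in 99.9% of L2/3 nuclei and 50.0% of astrocytes, a Csmd2 UMI in 58.2% of L6IT and 2.56% of microglia, and a Csmd3 UMI in 96.5% of OPC, 64.9% of oligodendrocytes and 5.01% of astrocytes.

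Loss of GR from astrocytes was accompanied by higher Csmd1 and Csmd3 in the astrocytes of normally reared mice. Of 75 pairs of a member and a cell type tested in NR, these were the 2 calls (2.67%, as against 0.804% of all pairs of a gene and a cell type, and 7.11% of genes in astrocytes). QLF and DESeq2 made 2 calls each, with backgrounds of 0.361 and 0.433%. In DR 0 of 60 pairs were called by the likelihood ratio test or QLF, 1 was by DESeq2, and 3 had an unadjusted p under 0.05. The backgrounds of the 3 tools there were 0.513, 0.00431 and 0.383%.

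Csmd3 in astrocytes was at 31.9 and 24.5 CPM in NR GR-Con, 68.0 and 64.9 in NR GR-KO, 46.6 and 71.9 in DR GR-Con and 37.0 and 43.4 in DR GR-KO. In NR the GR-KO libraries lay above the GR-Con libraries, and in DR they lay below them. The log2 difference in NR was 1.17 (SE 0.16, adjusted p = 3e-11, QLF 0.0021, DESeq2 5.8e-08), called without each library in turn. In DR it was -0.53 (95% interval -1.05 to -0.00, adjusted p = 0.81). The interaction was 1.69 (SE 0.32, 95% interval 1.06 to 2.33, adjusted p = 0.00031, DESeq2 0.00038), the only call among 71 pairs tested (1.41%, background 0.181%, 0.386% in astrocytes). By QLF it was not called (0.16), and neither without the DR GR-KO male or the NR GR-Con female (adjusted p up to 0.1). Within GR-KO, Csmd3 was lower in DR (-0.64, SE 0.14, adjusted p = 0.00055, QLF 0.017, with 2.85% of astrocyte genes called), but not without the DR GR-KO male (0.39). These comparisons share libraries and are not independent of each other. Over all cell types, the median UMIs per nucleus were 17759.5 and 15884 in NR GR-Con and 22827.5 and 29223 in NR GR-KO. In DR they were 16968 and 20161 in GR-Con and 14928.5 and 14861 in GR-KO. The NR GR-KO libraries and the DR GR-Con female, the deepest, also had the highest Csmd3 CPM. The part of depth was not tested.

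Csmd1 in astrocytes was at 556 and 700 CPM in NR GR-Con, 1131 and 1088 in NR GR-KO, 951 and 825 in DR GR-Con and 1252 and 998 in DR GR-KO. GR-KO lay above GR-Con in both rearing conditions, with no overlap within either. The log2 difference was 0.75 in NR (SE 0.18, adjusted p = 0.00078, QLF 0.0088), 0.36 in DR (95% interval -0.07 to 0.79, adjusted p = 1) and 0.55 over the 8 libraries (SE 0.15, adjusted p = 0.0057, QLF 0.04, DESeq2 0.0011). The last was the 1 call of 71 pairs for genotype over all libraries (background 0.4%, 4.79% in astrocytes), held in 4 of the 8 fits that left out 1 library, and the NR call was lost without the NR GR-Con male (0.073). Csmd2 in astrocytes was at 91.1, 100, 127, 114, 119, 80.6, 127 and 117 CPM in the same order of libraries. In NR its difference was 0.27 (adjusted p = 0.38, and 0.045 with sex as a term).

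**Figure D4:**
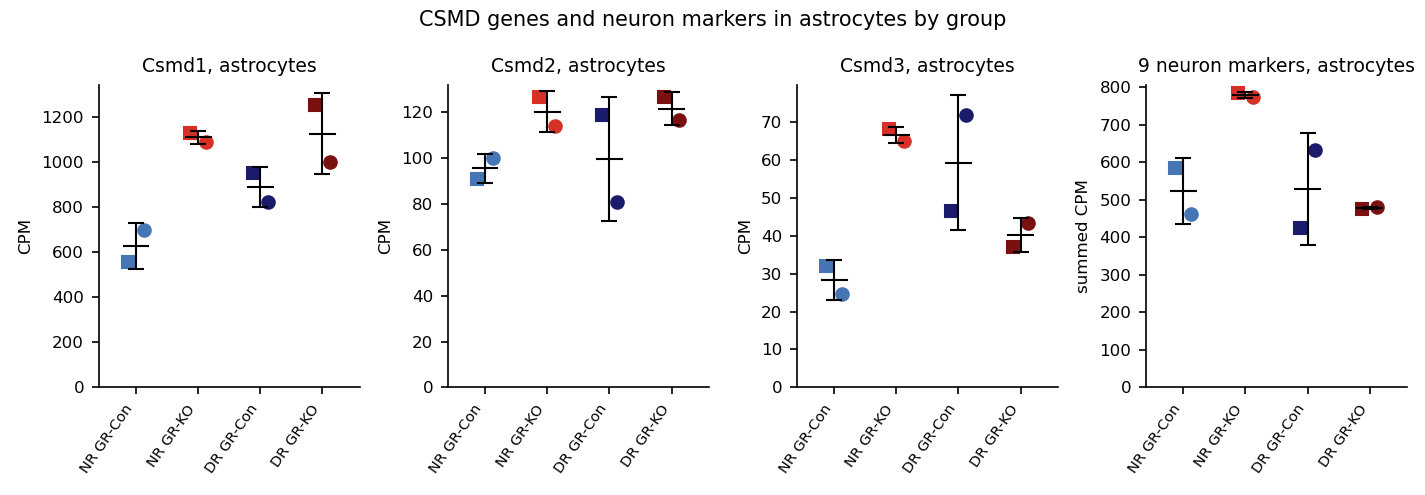
CPM in astrocytes of Csmd1, Csmd2, Csmd3 and the sum of 9 neuron markers in the 4 groups, 1 point per library (squares male, circles female) with the mean ± SD of 2 libraries. The means of Csmd3 and of the neuron markers are highest in NR GR-KO, and the highest single library of Csmd3 is the DR GR-Con female at 71.9 CPM.

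In NR, neuron markers moved with Csmd1 and Csmd3. The sum of 9 neuron markers in astrocytes was 584 and 461 CPM in NR GR-Con, 785 and 774 in NR GR-KO, 424 and 633 in DR GR-Con and 475 and 481 in DR GR-KO. All 9 markers were higher without overlap in NR GR-KO than in NR GR-Con, 8 of 9 were lower in DR GR-KO than in NR GR-KO, and none was at 0. Between the DR groups, where both GR-KO libraries lay above both GR-Con libraries in Csmd1, 1 of 9 was higher without overlap and 0 were lower. The sum of 4 OPC markers was 38.5 and 40.8 CPM in NR GR-Con, 85.8 and 105 in NR GR-KO, 56.9 and 64.4 in DR GR-Con and 138 and 128 in DR GR-KO, mostly from Vcan, with Pdgfra at 1.5 to 4.0 CPM. Of the 4, 3 were higher without overlap in NR GR-KO than in NR GR-Con and 0 lower. The share of all genes higher or lower without overlap is not given, so these marker counts, here and below, have no background. Over the 4 groups the sum was highest in DR GR-KO, as the mean of Csmd1 was, while the mean of Csmd3 was not. This order was that of Vcan, at 25.6 and 26.7, 70.4 and 88.9, 48.4 and 51.2, and 126 and 118 CPM in the groups in the order above. The paper reports Vcan as upregulated in astrocytes by GR disruption, so Vcan, and with it the sum, is no measure of OPC RNA here. Olig1 was at 7.8 and 8.4 CPM in NR GR-Con and 9.8 and 8.5 in NR GR-KO, and Cspg4 overlapped. In astrocytes without a neuron marker UMI, a selection added after the data were seen, Csmd1 was at 454 and 690 CPM in NR GR-Con (53 and 149 nuclei) and 876 and 1091 in NR GR-KO, but the latter came from 3 nuclei each. Csmd3 there was at 25.7 and 17.2 CPM in NR GR-Con and at 0 and 49.6 in NR GR-KO, the latter from 0 and 1 UMIs. In DR, Csmd1 there was at 889 and 756 CPM in GR-Con (252 and 19 nuclei) and 1286 and 989 in GR-KO (124 and 139 nuclei). Csmd3 in the same DR nuclei was at 32.2 and 92.8 CPM in GR-Con and 39.0 and 47.9 in GR-KO, which overlap. The part of RNA of neurons or OPC in the 2 calls was not tested.

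Csmd2 was higher after rearing in the dark in excitatory neurons. Over the 8 libraries, 10 of 71 pairs were called for rearing (14.1%, 8 higher and 2 lower in DR), as against 5.24% of all pairs, 2.62% higher and 2.63% lower. QLF made 5 calls and DESeq2 made 14, with backgrounds of 3.3 and 5.07%. Of the 8 higher, 6 were Csmd2, called in 6 of 8 excitatory types by the likelihood ratio test, 3 by QLF and 7 by DESeq2. Of all pairs in these types, the 3 tools called 3.77, 2.66 and 4.42% as higher. The log2 difference of Csmd2 was above 0 in 15 of 15 cell types, which come from the same libraries. The median over all genes was -0.01 to 0.00.

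In L6CT, Csmd2 was at 616 and 559 CPM in NR GR-Con, 596 and 544 in NR GR-KO, 738 and 812 in DR GR-Con and 761 and 714 in DR GR-KO. The 4 DR libraries all lay above the 4 NR libraries, at 756 ± 42 against 579 ± 32.9 CPM (SD, n = 4). For Csmd2 this lack of overlap was found in 7 of the 8 excitatory types, and the share over all genes is not given. The log2 difference in L6CT was 0.39 (SE 0.09, adjusted p = 0.00059, QLF 0.0099, DESeq2 1.6e-07) and was called without each library in turn. It was 0.40 within GR-Con (adjusted p = 0.31) and 0.39 within GR-KO (0.12), with an interaction of 0.01 (95% interval -0.40 to 0.41).

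The 5 other calls were smaller or nearer the threshold. L6IT, where Csmd2 was highest, stood at 893 and 797, 791 and 752, 925 and 1169, and 1001 and 961 CPM in the 4 groups in the same order, with a difference of 0.32 (adjusted p = 0.017, QLF 0.045). L4 followed with 0.29 (0.027, QLF 0.034), L5PT with 0.34 (0.035, QLF 0.083), L5NP with 0.30 (0.042, QLF 0.057) and L5IT with 0.36 (0.049, QLF 0.078). Each of the 5 was called in only 1 or 2 of the 8 fits that left out 1 library. Not called were L2/3 with 0.28 (adjusted p = 0.082, DESeq2 0.026), L6b with 0.24 (0.58), OPC with 0.25 (0.088, QLF 0.036, DESeq2 0.005) and oligodendrocytes with 0.31 (0.11, DESeq2 0.044). With sex as a term L2/3, OPC and oligodendrocytes were called (adjusted p = 0.041, 0.011 and 0.0098). Interneurons were at 0.07 to 0.18.

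**Figure D5:**
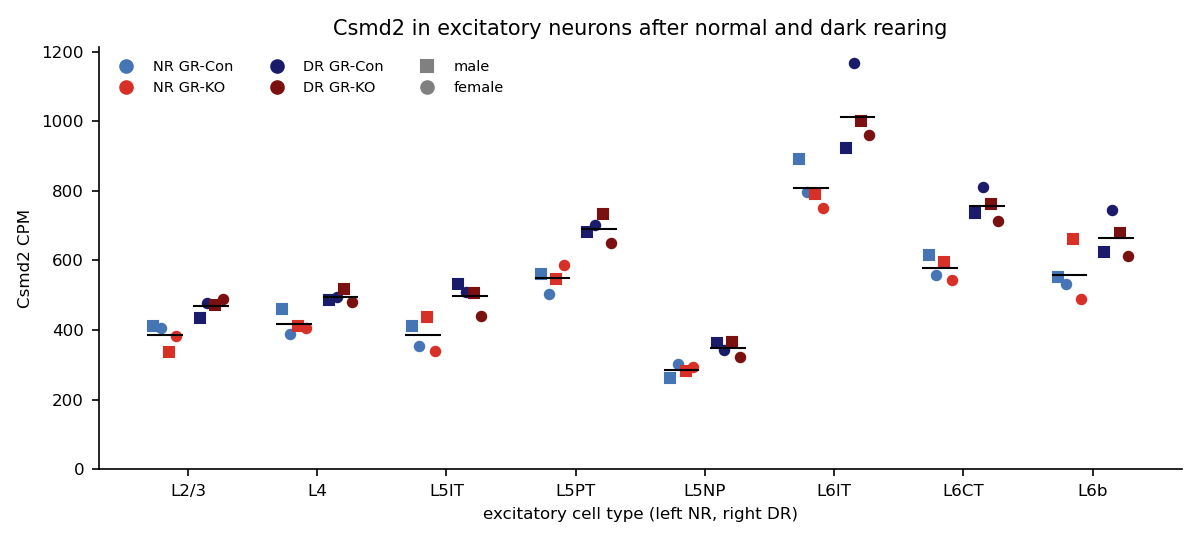
CPM of Csmd2 in the 8 excitatory cell types, NR libraries on the left and DR libraries on the right of each, 1 point per library (squares male, circles female) and a line at the mean of 4. In 7 of the 8 types, L6CT and L6IT among them, no DR library overlaps an NR library.

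The remaining CSMD calls were in other cell types. In L5IT, Csmd3 was at 584 and 570 CPM in NR GR-Con and 964 and 848 in DR GR-Con (log2 difference 0.65, SE 0.15, adjusted p = 0.00099, QLF 0.022, 2 of 4 fits without 1 library). In GR-KO it was at 966 and 625 CPM in NR and 808 and 666 in DR, which overlap (-0.10, 95% interval -0.59 to 0.38). This and Csmd2 in L5IT were the 2 calls of 67 pairs for rearing within GR-Con (2.99%, background 2.25%). In oligodendrocytes Csmd1 was at 904, 707, 654 and 1178 CPM in the 4 NR libraries and 1234, 1260, 1400 and 1494 in the 4 DR libraries. DR lay above NR without overlap (0.65, SE 0.17, adjusted p = 0.0088, DESeq2 0.00099), but QLF gave 0.062, and 3.82% of oligodendrocyte genes were called. The 4 OPC markers summed to 180 to 306 CPM in these oligodendrocytes in NR and 266 to 333 CPM in DR, and 3 of 4 were higher without overlap in DR GR-KO than in NR GR-KO. Between the 4 NR and the 4 DR libraries 0 of 4 were. The 9 neuron markers there summed to 326 to 688 CPM in NR and 285 to 452 CPM in DR. In oligodendrocytes without a neuron marker UMI, Csmd1 was at 297, 514 and 125 CPM in NR (24, 61 and 3 nuclei). The NR GR-KO female had 0 such nuclei. In DR it was at 926, 796, 1011 and 1464 CPM (98, 4, 93 and 57 nuclei). The part of RNA of neurons or OPC was not tested.

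In VLMC of GR-KO mice all 3 CSMD genes were lower in DR, and these were with C4b and Csmd3 in astrocytes the 5 calls of 77 pairs (6.49%, background 3.66%, but 19.9% in VLMC). Csmd1 fell from 5034 and 3966 CPM to 568 and 1058 (log2 difference -2.70, SE 0.45, adjusted p = 6.1e-08, QLF 0.0038). Csmd2 fell from 224 and 219 to 40.6 and 86.8 CPM (-1.98, adjusted p = 1.5e-06), and Csmd3 from 528 and 344 to 131 and 104 CPM (-2.14, adjusted p = 3.1e-07). The VLMC of these libraries were 20, 47, 53 and 65 nuclei, and their summed neuron markers moved in the same way, from 3819 and 4964 to 717 and 1195 CPM, with 8 of 9 markers lower. Their part was not tested.

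In microglia Csmd3 was at 1062 CPM in the NR GR-Con female, 748 in the NR GR-KO female, 1397 in the DR GR-Con male and 805 and 798 in DR GR-KO. The 3 GR-KO libraries lay below both GR-Con libraries. In the fit over 5 libraries, added after these values were seen, the difference was -0.69 (SE 0.14, adjusted p = 0.0012, QLF 0.049), while DESeq2 gave 0.054 and the call was lost without the DR GR-KO male (0.10) or the DR GR-KO female (0.077). Neuron markers summed to 994, 1565, 854, 884 and 1032 CPM in the 5 libraries. The 4 OPC markers summed to 18.8, 32.8, 16.0, 23.7 and 18.5 CPM in the same order. Their part was not tested.

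Of 51 other genes of the pathway, listed with earlier results known, 48 were in the matrices. The initiating protease of the lectin pathway, Masp1, was lower in astrocytes of GR-KO mice: 37.9 ± 5.2 CPM in GR-Con against 19.8 ± 1.2 in GR-KO (SD, n = 4; log2 difference -0.97, SE 0.15, adjusted p = 5.6e-08, QLF 0.0036). C2, the protease partner of C4, was also lower, at 4.69 ± 0.789 against 2.17 ± 0.407 CPM (-1.12, SE 0.25, adjusted p = 0.00043, QLF 0.024). In the same fits 5 of 279 pairs of these genes were called (1.79%, background 0.4%, but 4.79% in astrocytes). In NR alone 6 of 286 were called, 3 higher and 3 lower (2.1%, background 0.804%, but 7.11% in astrocytes). In NR astrocytes of GR-KO mice Sez6l, a relative of the CSMD genes with CUB and sushi domains, was higher (0.97, adjusted p = 0.00023, QLF 0.02), and the membrane inhibitor Susd4 was called by the likelihood ratio test alone (0.81, adjusted p = 0.038, QLF 0.13, DESeq2 0.37). These are the astrocytes in which 9 of 9 neuron markers were higher without overlap. The 3 of 4 OPC markers that were higher there include Vcan, which is no measure of OPC RNA here. The part of the markers was not tested. Within DR 1 of 250 was called (background 0.513%), and of the interactions 0 of 279 (background 0.181%), with 22 at an unadjusted p under 0.05.

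For rearing, 39 of 279 pairs were called over the 8 libraries, 34 higher and 5 lower in DR (25 in all by QLF and 35 by DESeq2). The backgrounds were 5.24%, 2.62% higher and 2.63% lower, with 3.3% by QLF and 5.07% by DESeq2. Sez6l was higher in 9 of 15 cell types, Sez6 in 6 of 15 and Susd4 in 4 of 15. In L2/3 the Sez6 difference was 1.02 (adjusted p = 6.9e-06). In oligodendrocytes Susd4 went from 78.5 ± 17.2 to 146 ± 11.8 CPM (0.90, adjusted p = 6.5e-08) and Sez6l from 122 ± 12.6 to 197 ± 9.44 CPM (0.69, adjusted p = 5.2e-08), whereas Sez6l2 was lower (-0.59, adjusted p = 0.0006). Masp1 in L6CT went from 3.37 to 7.24 CPM (1.09, adjusted p = 0.00032). Within GR-Con 14 of 268 pairs were called by the likelihood ratio test (background 2.25%), 1 by QLF and 9 by DESeq2. Within GR-KO 37 of 282 were called by the likelihood ratio test (background 3.66%), 8 by QLF and 21 by DESeq2. The shares of all genes called by QLF and DESeq2 within GR-Con and within GR-KO are not given, so their lower counts have no background.

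These genes had their highest levels in separate cell types. Masp1 was highest in oligodendrocytes (60.0 CPM), Susd4 in Lamp5 interneurons (317 CPM) and Sez6l in OPC (334 CPM), the cell type with the highest Csmd3.

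The genes most like each member over the 20 cell types, by Pearson's r among 13665 genes that reached 10 CPM in a cell type, are a description, since all cell types share the same libraries. The means of all 8 libraries were used with equal weight, so those of microglia include the 3 libraries with 2 to 4 microglial nuclei. For C1qa these were Dhx9 (0.989), Gpr34 (0.986) and Tmem119 (0.980), the last 2 known microglial genes. For C4b they were Nadk2 (0.939) and Elmod3 (0.937), for Csmd1 Lrrc7 (0.936) and Jazf1 (0.929), for Csmd2 its antisense gene Csmd2os (0.923), and for Csmd3 Pak3 (0.780) and Pvr (0.752). Among the members, C1qa had r = 0.977 with C1qb and 0.993 with C1qc, while Csmd1 had 0.709 with Csmd2 and 0.400 with Csmd3.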

How the data were processed

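Single-nucleus RNA-seq was made with the 10x 3′ v4 kit, and the authors processed it with Cell Ranger 8.0.1 on mm10 and with Seurat 5.3.0. The authors removed nuclei with few or many counts and doublets predicted by DoubletFinder. The deposited matrix holds UMI counts per gene and nucleus, and the deposited nucleus table gives the library and the authors' cell type. Library names give the group and sex but not which replicate, so libraries were matched to groups only. No nucleus was removed here. Counts were summed per library and cell type. Cell types with at least 10 nuclei in every library of a comparison were tested with edgeR 4.0.16 by its likelihood ratio test, the test named in the methods of the study, after filterByExpr and TMM, which were chosen here, with Benjamini-Hochberg adjustment over all genes of a cell type. The edgeR quasi-likelihood test and DESeq2 1.42.0 were alternatives, in R 4.3.3. The scripts were tested on simulated data. SE is that of the log2 difference. Each library is 1 mouse, so sex and mouse cannot be told apart within a group. Gene positions are from GENCODE vM21 on GRCm38. The members and lists were chosen with earlier results of these data known, and the named genes are the members, the calls of the pathway list and the genes most like each member, with Nr3c1 added after its values were seen. Values of 1 gene of the pathway list are not reported here.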

Additional observations from a re-analysis of the deposited data

Results flagged for a closer look

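Csmd3 in astrocytes was called by the edgeR likelihood ratio test and by DESeq2 as differing between rearing conditions in its response to loss of GR. The log2 difference of GR-KO from GR-Con in NR exceeded that in DR by 1.69 (adjusted p = 0.00031 by the edgeR likelihood ratio test of the interaction). The quasi-likelihood test did not call it (0.16), and the call was lost without the DR GR-KO male or the NR GR-Con female. The neuron markers in the same nuclei and the median UMIs per nucleus of the libraries were highest in NR GR-KO. Their part in the value was not tested.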

How the results depend on the processing

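Scaling by DESeq2 size factors left all 7 counts of called members within 1.5 times. Other settings moved them. For genotype in NR, 2 calls became 4 with sex as a term. For genotype in DR, 0 became 1 with DESeq2 and 1 with sex. For rearing in GR-Con, 2 became 1 with the quasi-likelihood test, 4 with DESeq2, 1 with no filter on low counts and 4 with sex. For rearing in GR-KO, 5 became 10 with DESeq2, 16 with sex and 1 with equal numbers of nuclei, where VLMC could not be fitted. For the interaction, 1 became 0 with the quasi-likelihood test, 3 with sex and 2 with a minimum of 1 nucleus. For genotype over 8 libraries, 1 became 2 with equal numbers of nuclei, and for rearing over 8 libraries 10 became 5 with the quasi-likelihood test. Leaving out 1 library gave 1 to 4 calls for genotype in NR, 0 to 6 in DR and 0 to 3 over 8 libraries, 0 to 5 for rearing in GR-Con, 5 to 11 in GR-KO and 3 to 10 over 8 libraries, and 0 to 2 for the interaction. The cause was not tested. For these settings the share of all genes called is not given, other than for the quasi-likelihood test and DESeq2 where printed above. Without that share a moved count cannot be set against the change over all genes, the counts with sex as a term included. Thinning to 1000 UMIs moved the share of nuclei with a UMI from 68.2 to 36.5% for C1q in microglia, 8.12 to 1.83% for C4b in astrocytes, 100.0 to 99.9% for Csmd1 in L2/3, 99.8 to 58.2% for Csmd2 in L6IT and 99.9 to 96.5% for Csmd3 in OPC. In microglia the genotype difference turned to -0.15 for C1qa without the DR GR-Con male, and, without the NR GR-Con or the NR GR-KO female, to 0.17 for C1qb and 0.18 for C1qc (lowest -0.37 and -0.32). Without the NR GR-KO female the rearing difference turned to -0.21 for C1qb and for C1qc (highest 0.33 and 0.29). No neighbouring pair in the order of levels passed under any setting, in a design whose smallest p, 0.0078, says nothing of stability here. No paired analysis was possible because the replicate numbers of the labels could not be matched to libraries. Sex, shared by 1 library of each group, is the only block the names allow, and the values with sex above are that fit.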
